A study of Mus musculus with 12 samples.

Results

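The insulin-like growth factor (IGF) axis was followed in the mouse mammary gland through 9 genes: the ligand genes Igf1 and Igf2, the receptor gene Igf1r, and the binding protein genes Igfbp2, Igfbp3, Igfbp4, Igfbp5, Igfbp6 and Igfbp7. Members were the probe sets whose annotated gene symbol on the array platform is one of these 9, which gave 26 of the 45101 probe sets and 9 of the 18193 genes measured. A probe set is a group of short oligonucleotides on an Affymetrix array that read one transcript, and all levels below are log2 signals, so that 1 unit is a doubling. Each gene is read from its brightest probe set, and the other probe sets are described beside it.

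Mammary gland RNA came from 12 virgin, ovariectomized C57BL/6 mice, 6 of genotype Ccnd1+/+ (wildtype) and 6 of genotype Ccnd1-/- (knockout, lacking cyclin D1). Within each genotype 3 mice received placebo, called vehicle in the sample titles, and 3 received a pellet of 0.72 mg estradiol made to release over 60 days, for 7 days of treatment. All 4 groups therefore lack ovaries, and the placebo groups received no estradiol in its place. The labels give neither the ages of the mice nor how the Ccnd1 allele was made. Cyclin D1 binds the kinases that start the cell cycle and is also known as a partner of the estrogen receptor. The design thus asks how estradiol changes each gene in either genotype, how the genotypes differ under either treatment, and whether the estradiol response differs between genotypes.

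IGF-I and IGF-II are small secreted hormones that signal through the IGF1R receptor tyrosine kinase to promote growth and survival. In blood and tissue most IGF is held by binding proteins, which limit or prolong its access to the receptor and are themselves cut by proteases. In the mammary gland, growth hormone acts on the stroma to raise IGF-I, which supports duct growth together with estrogen, and IGFBP5 is known as a product of the epithelium during involution. IGFBP7 binds IGF only weakly and is often grouped with the related proteins.

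The Ccnd1 signal differed by -1.93 log2 units between knockout and wildtype glands (the 6 wildtype glands lay between 8.50 and 10.82, the 6 knockout glands between 7.24 and 7.68; exact two-sided permutation test over 924 arrangements, p = 0.00216); whether these probes lie in the deleted stretch is not given in the sources used here. The estrogen targets Greb1 and Pgr were higher with estradiol in wildtype glands by 5.83 and 3.06 log2 units. Array medians ran from 5.73 to 5.80. White adipocyte markers were strong in every gland (12 of 12 measured genes above the lower quartile of all probe sets on all arrays), while 12 of 18 measured luminal epithelial markers were. Lymphocyte marker scores split the arrays within the groups: wildtype placebo 3, wildtype estradiol 1 and 3, knockout placebo 2 and knockout estradiol 1 were poor in these genes. In such whole-gland RNA, fewer cells of a type and less RNA per cell cannot be told apart.

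Igfbp2 was the only member that passed the test. It rose with estradiol in wildtype glands by 0.83 log2 units and was lower in knockout than in wildtype glands under estradiol by 1.17 log2 units. In the knockout its estradiol difference was -0.05 log2 units. The largest difference in size, that of Igfbp6 in wildtype glands (3.30 log2 units), did not pass the test (SE 0.77). Igf1 and Igfbp3 had lower values with estradiol in both genotypes and did not pass the test in either. Their treated and placebo glands did not overlap. The same held, with estradiol lower, for 5.11% of all genes in wildtype and 5.09% in the knockout. A member that did not pass was not shown to be unchanged. Tests were limma fits with Benjamini-Hochberg adjustment over all 18193 genes, called at an adjusted p under 0.05.

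Across all genes, 1.88% were called for estradiol in wildtype glands, 0.0989% for estradiol in knockout glands, 0% for genotype under placebo, 1.12% for genotype under estradiol and 0.011% for the interaction, which is the difference between the genotypes' estradiol responses. Of the 9 members, 1, 0, 0, 1 and 0 were called in these comparisons, and the same gene, Igfbp2, gave both calls. At an unadjusted p under 0.05 the members counted 4, 2, 0, 3 and 1, where 13.5%, 8.32%, 2.03%, 13.5% and 6.43% of all genes passed. The median difference of the members was 0.27 log2 units for estradiol in wildtype glands (0.01 over all genes) and -0.56 log2 units for genotype under estradiol (0.03 over all genes). In wildtype glands 7 of the 9 members had higher means with estradiol, where 52.0% of all genes had. In the knockout 1 member had, where 51.0% of all genes had. The knockout differences of Igfbp2, Igfbp4, Igfbp5 and Igfbp7 lay between -0.10 and -0.05 log2 units, with 95% intervals that span 0. For Igfbp4, 4 of 6 probe sets were above 0 in the knockout. The comparisons of estradiol in wildtype glands and of genotype under estradiol share the 3 estradiol-treated wildtype glands, so their values are given side by side and not as separate support.

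**Figure D1:**
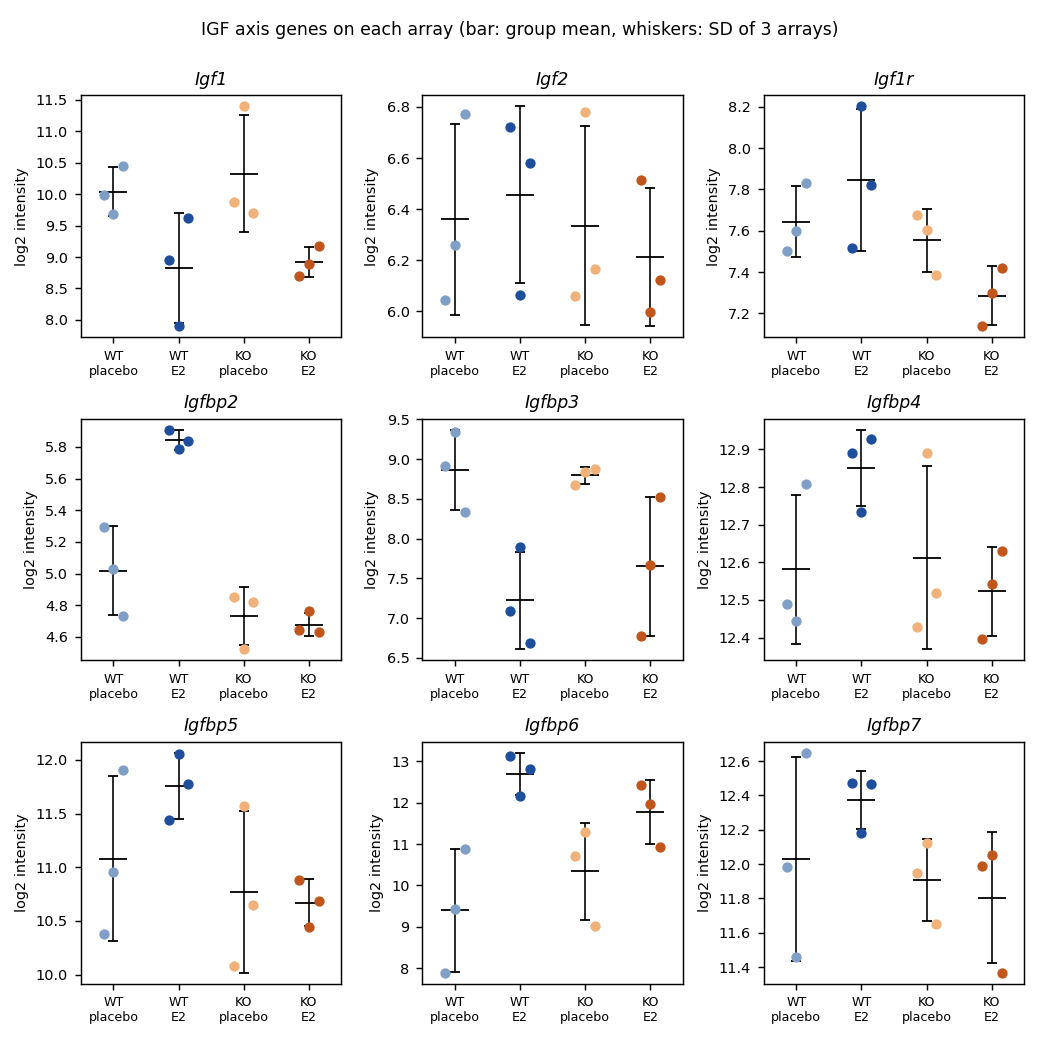
Log2 signal (vertical axis) of each of the 9 genes in every array, by group (horizontal axis). WT is wildtype, KO knockout and E2 estradiol. Points are single glands, bars are group means and whiskers the SD of 3 arrays; the 3 wildtype estradiol glands stand above all others for Igfbp2, between 5.78 and 5.91, and placebo values are widely spread for Igfbp6, from 7.89 to 11.28.

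**Figure D2:**
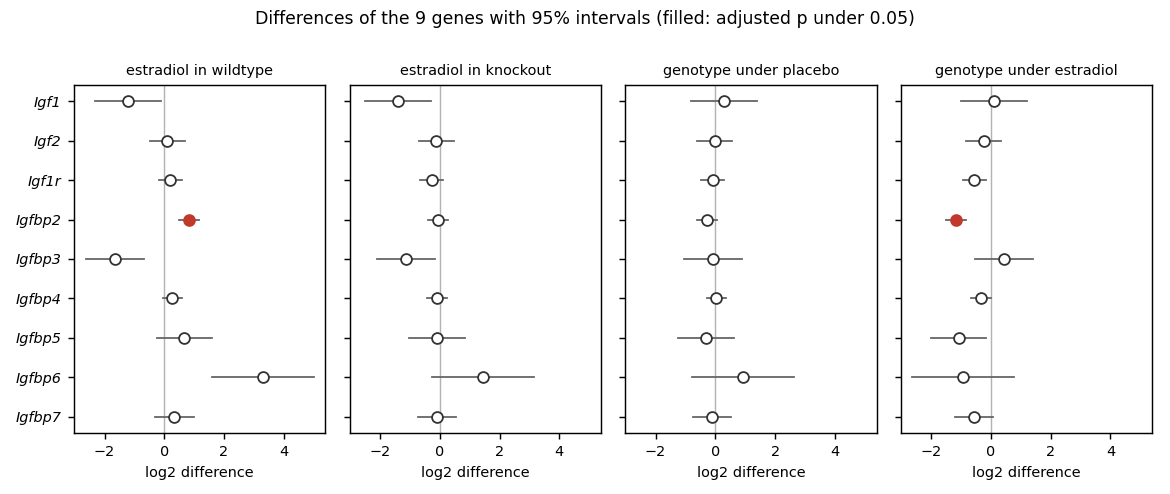
Differences in log2 signal (horizontal axis) of the 9 genes in the 4 comparisons of 2 groups, with 95% intervals from the limma fit; filled points passed an adjusted p under 0.05. Igfbp2 is filled for estradiol in wildtype and for genotype under estradiol, and every interval for genotype under placebo crosses 0.

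Igf1, which encodes the IGF-I hormone, read 9.99, 9.68 and 10.45 in the wildtype placebo glands and 8.95, 7.90 and 9.63 in the wildtype estradiol glands. In the knockout it read 9.88, 11.40 and 9.71 with placebo and 8.70, 8.89 and 9.18 with estradiol. Every estradiol-treated gland lay below every placebo gland of its own genotype. The difference was -1.22 log2 units in wildtype (SE 0.50, a 2.32-fold lower signal, adjusted p = 0.308) and -1.41 log2 units in the knockout (SE 0.50, 2.65-fold lower, adjusted p = 0.506). Averaged over both genotypes it was -1.31 log2 units with an adjusted p of 0.109, and the interaction was -0.19 log2 units with a 95% interval that spans 0. Non-overlap alone is common in groups this small: 17% of all genes did not overlap in wildtype and 13.5% in the knockout, 5.11% and 5.09% with estradiol lower.

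Igf1 is read by 4 probe sets, and all 4 gave differences below 0 in both genotypes, from -1.33 to -0.07 log2 units in wildtype and from -1.41 to -0.41 log2 units in the knockout. The size thus depended on the probe set: those with the larger differences were 1437401_at and 1434413_at, while 1452014_a_at gave the smallest in both genotypes. Over 26 alternative settings the wildtype difference ran from -2.02 log2 units (fibroblast score as a covariate, adjusted p = 0.233) to -0.42 log2 units (luminal score, adjusted p = 0.952). It passed the test in 1 of the 26, with the lymphocyte score (-1.64 log2 units, adjusted p = 0.0439). Without wildtype estradiol gland 2 it was -0.75 log2 units, and without knockout placebo gland 2 the knockout difference was -0.87 log2 units. Under either treatment the genotypes' Igf1 values overlapped.

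Because estradiol acts through a receptor that binds DNA, the sequence at the start of Igf1 is shown, from 250 bases before to 50 bases after the RefSeq start site, chr10:87860861-87861160 on the plus strand of GRCm38.p6. Capitals mark matches to the motifs searched on both strands.
Igf1: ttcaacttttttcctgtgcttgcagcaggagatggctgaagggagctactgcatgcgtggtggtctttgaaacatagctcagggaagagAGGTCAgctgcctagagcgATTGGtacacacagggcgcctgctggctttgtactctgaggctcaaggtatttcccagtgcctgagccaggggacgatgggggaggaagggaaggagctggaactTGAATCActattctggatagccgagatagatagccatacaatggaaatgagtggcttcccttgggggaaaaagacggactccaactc
The motifs were the palindromic estrogen response element (GGTCA and TGACC, 3 bases apart), its single arm AGGTCA (which shares GGTCA with the whole element), the Sp1 GC box GGGCGG, the TATA box TATAAA, the E2F site TTTCCCGC, the AP-1 site TGANTCA and the CCAAT box CCAAT. The Igf1 window held the single arm at position -161, a CCAAT box on the minus strand at -142 and an AP-1 site at -37, counted from the start site. Of 32851 mouse promoter windows of the same length, 16.3% hold the single arm, 7.81% an AP-1 site, 37.4% a CCAAT box and 0.07% the whole estrogen response element. None of the 13 windows of the 9 members holds the whole element. A match is a description of letters and not of binding.

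Igf2 encodes the fetal-type hormone IGF-II and is silent in many adult tissues. It read 6.04 to 6.77 with placebo and 6.06 to 6.72 with estradiol in wildtype glands, and 6.06 to 6.78 with placebo and 6.00 to 6.51 with estradiol in knockout glands. All 4 groups overlapped, and the differences were 0.10 log2 units with estradiol in wildtype and -0.12 log2 units in the knockout (95% interval in wildtype -0.49 to 0.68). The other Igf2 probe set, 1415931_at, stayed under the lower quartile of all probe sets on 12 of 12 arrays.

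Igf1r, the receptor through which both hormones signal, read 7.50, 7.60 and 7.83 in wildtype placebo and 7.52, 8.20 and 7.82 in wildtype estradiol glands. The knockout read 7.68, 7.60 and 7.38 with placebo and 7.14, 7.30 and 7.42 with estradiol. Under estradiol all 3 knockout glands lay below all 3 wildtype glands, at -0.56 log2 units (SE 0.17), which did not pass the test (adjusted p = 0.188). This was the probe set 1452982_at; over the 5 Igf1r probe sets the genotype difference under estradiol ran from -0.56 to 0.09 log2 units, 4 below 0 and 1 above. Estradiol differences were between 0.09 and 0.39 log2 units in wildtype, with all 5 probe sets above 0, and between -0.27 and 0.05 log2 units in the knockout. The interaction was below 0 for all 5 probe sets, with none called.

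Igfbp2 encodes a binding protein secreted into blood and milk, with an integrin-binding motif. It read 5.29, 5.03 and 4.73 in wildtype placebo glands and 5.91, 5.78 and 5.84 in wildtype estradiol glands. In the knockout it read 4.85, 4.52 and 4.82 with placebo and 4.64, 4.76 and 4.63 with estradiol. The 3 wildtype estradiol glands were the highest of the 12. The wildtype means were 5.02 with placebo and 5.84 with estradiol, and those of the knockout were 4.73 and 4.68. Between placebo and estradiol mice of the wildtype, Igfbp2 rose by 0.83 log2 units (SE 0.15, 95% interval 0.50 to 1.15, 1.77-fold, adjusted p = 0.0209).

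In the knockout the Igfbp2 estradiol difference was -0.05 log2 units (95% interval -0.38 to 0.27). Under estradiol Igfbp2 was lower in the knockout by 1.17 log2 units (SE 0.15, 2.24-fold, adjusted p = 0.0121), and all 3 knockout glands lay below all 3 wildtype glands. Under placebo the genotype difference was -0.29 log2 units (adjusted p = 1.0). The test of the difference between the 2 estradiol responses gave -0.88 log2 units (SE 0.21) with an unadjusted p of 0.0016 and an adjusted p of 0.291, so the responses were not shown to differ after adjustment over all genes. That test passed in 2 of 24 alternative settings, with array weights (adjusted p = 0.0278) and with the lymphocyte score as a covariate (adjusted p = 0.0491). It passed in 0 of the 12 fits that each left out 1 array. The highest adjusted p over the 24 settings was 0.653.

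Igfbp2 has 1 probe set, 1454159_a_at, and its signal is dim: it stayed above the lower quartile of each array on all 12 arrays but belongs to the dimmest 40% of genes. The wildtype call was lost without wildtype placebo gland 2 (adjusted p = 0.0906), without wildtype estradiol gland 1, 2 or 3 (0.0685, 0.0516 and 0.0732), with the 6 wildtype arrays alone (0.143) and with the fibroblast score as a covariate (0.0575); the call for genotype under estradiol was lost without knockout estradiol gland 3 (0.0598). Luminal markers were, like this gene, highest in the wildtype estradiol glands. Their score, the mean centred log2 signal of 18 of 20 listed genes such as keratins and claudins, was 0.83 to 2.42 in the wildtype estradiol glands and -0.12 to 0.32 in their placebo controls, while knockout glands had -1.29 to 0.10 with placebo and -1.33 to -0.63 with estradiol. Basal and myoepithelial markers (15 of 15 measured) also had their highest scores in the wildtype estradiol glands, 0.90 to 1.24 against -0.84 to 0.15 in the other 9, and so did macrophage and myeloid markers (15 of 15 measured), 0.35 to 1.82 against -0.79 to 0.23; their part in the result was not tested. Within the groups, each of 3 glands, the order by Igfbp2 was not the order by luminal score. Whether the gene and the score are linked was not tested. Among wildtype estradiol glands the highest score, 2.42, went with the lowest Igfbp2, 5.78, and the lowest score, 0.83, with the highest, 5.91. Among wildtype placebo glands the highest score, 0.32, went with the lowest Igfbp2, 4.73. In neither knockout group did the gland with the highest score have the highest Igfbp2, though with placebo it read 4.82 against a highest of 4.85. With the luminal score as a covariate, Igfbp2 for estradiol in wildtype stood at 0.87 log2 units (adjusted p = 0.201), against 0.83 without. For genotype under estradiol it stood at -1.25 log2 units (adjusted p = 0.863), against -1.17 without. Fewer genes in all were called for estradiol in wildtype with this covariate, as counted below.

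**Figure D3:**
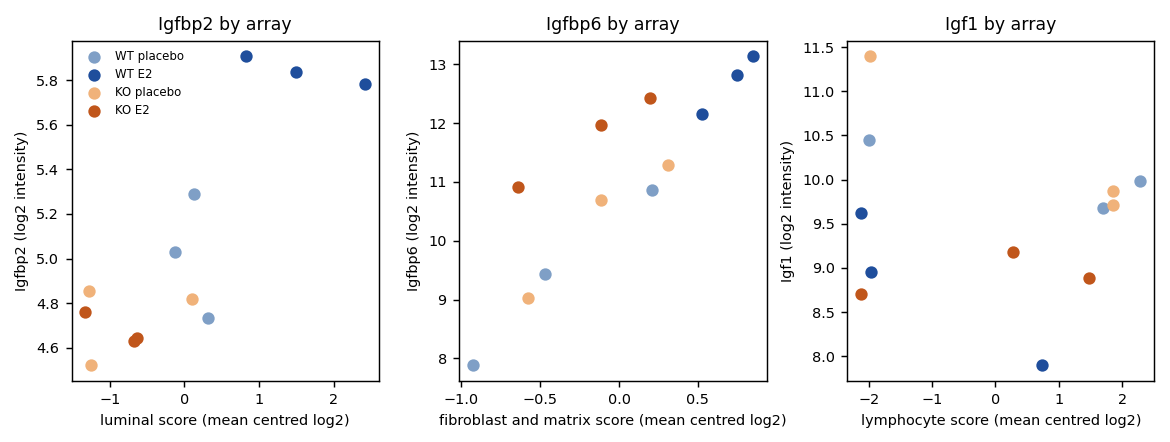
Member signal (vertical axis, log2) against a marker score (horizontal axis, mean centred log2 signal of the marker list) for all 12 arrays, coloured by group: Igfbp2 with luminal markers, Igfbp6 with fibroblast and matrix markers, Igf1 with lymphocyte markers. The 3 wildtype estradiol glands have both the highest Igfbp2 signals and the highest luminal scores, 0.83 to 2.42, and Igfbp6 is lowest, at 7.89, in the gland with the lowest fibroblast score, -0.92.

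RefSeq gives Igfbp2 a pair of start sites on the plus strand of chromosome 1, at windows chr1:72824230-72824529 and chr1:72825137-72825436 (GRCm38.p6); they are shown because this gene carries both calls, with motif matches in capitals as for Igf1.
Igfbp2, first start: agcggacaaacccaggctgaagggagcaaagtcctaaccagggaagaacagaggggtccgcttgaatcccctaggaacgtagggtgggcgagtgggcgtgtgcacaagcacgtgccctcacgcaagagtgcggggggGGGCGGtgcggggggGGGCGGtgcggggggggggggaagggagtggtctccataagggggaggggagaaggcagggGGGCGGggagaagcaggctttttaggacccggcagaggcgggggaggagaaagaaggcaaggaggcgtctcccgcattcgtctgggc
Igfbp2, second start: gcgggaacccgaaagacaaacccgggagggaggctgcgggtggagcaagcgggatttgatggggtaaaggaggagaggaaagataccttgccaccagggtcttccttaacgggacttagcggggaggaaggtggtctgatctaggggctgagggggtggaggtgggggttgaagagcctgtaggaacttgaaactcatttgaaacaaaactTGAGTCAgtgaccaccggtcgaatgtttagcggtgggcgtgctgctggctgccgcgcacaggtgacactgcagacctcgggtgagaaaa
The first window held 3 GC boxes, at positions -113, -98 and -37, a motif found in 35.7% of all promoter windows, and its GC content was 67.0% against a median of 52.7% over all windows. The second held 1 AP-1 site at -39 and no GC box. Which start the gland uses cannot be read from this probe set.

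Igfbp3 encodes the main carrier of IGF in blood, and its protein is also made by stromal cells. It read 8.91, 9.35 and 8.33 in wildtype placebo and 7.09, 7.89 and 6.68 in wildtype estradiol glands. In the knockout it read 8.68, 8.84 and 8.88 with placebo and 6.77, 7.67 and 8.52 with estradiol. With estradiol lower, as for 5.11% of all genes in wildtype and 5.09% in the knockout, treated and placebo glands did not overlap. Knockout estradiol gland 3, at 8.52, came close to its placebo range. The difference was -1.64 log2 units in wildtype (SE 0.44, 3.12-fold lower, adjusted p = 0.0968) and -1.14 log2 units in the knockout (adjusted p = 0.534). Without knockout estradiol gland 1 the knockout difference was -0.70 log2 units. Averaged over genotypes it was -1.39 log2 units (adjusted p = 0.0599).

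The other Igfbp3 probe set gave -1.36 log2 units in wildtype and -0.64 log2 units in the knockout. Without wildtype placebo gland 3 the wildtype difference was -1.91 log2 units and passed the test (adjusted p = 0.0471), and with the fibroblast score as a covariate it was -0.66 log2 units (adjusted p = 0.543). Igfbp3 lies next to Igfbp1 on chromosome 11. Igfbp1, a liver-made binding protein outside the 9 genes, stayed under the lower quartile on 12 of 12 arrays, between 3.23 and 3.70. The Igfbp3 start window held none of the 7 motifs.

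Igfbp4 encodes an inhibitory binding protein that the protease PAPP-A cuts to release IGF. It read 12.44 to 12.81 with placebo and 12.73 to 12.93 with estradiol in wildtype glands, and 12.43 to 12.89 with placebo and 12.40 to 12.63 with estradiol in knockout glands. The 4 groups lay close together. Under estradiol the 3 knockout glands were below the 3 wildtype glands, at -0.33 log2 units (adjusted p = 0.371). The 6 probe sets gave 0.27 to 0.50 log2 units for estradiol in wildtype, -0.09 to 0.12 log2 units in the knockout and -0.43 to -0.28 log2 units for genotype under estradiol, all with the same sign in the first and the last, and none was called.

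Igfbp5, whose product binds IGF in the matrix and marks the involuting gland, read 10.38, 10.96 and 11.90 in wildtype placebo and 11.44, 12.06 and 11.77 in wildtype estradiol glands. In the knockout it read 10.08, 11.57 and 10.65 with placebo and 10.88, 10.44 and 10.69 with estradiol. Under estradiol the genotypes did not overlap, and the knockout was at -1.09 log2 units (SE 0.42, adjusted p = 0.292). The other probe set gave -0.50 log2 units there. Estradiol differences were 0.68 log2 units in wildtype and -0.10 log2 units in the knockout, with overlapping groups in both. Igfbp5 is the neighbour of Igfbp2 on chromosome 1.

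Igfbp6 encodes a binding protein that prefers IGF-II. It read 7.89, 9.44 and 10.87 in wildtype placebo glands and 13.14, 12.15 and 12.82 in wildtype estradiol glands. In the knockout it read 10.70, 11.28 and 9.03 with placebo and 12.43, 11.97 and 10.92 with estradiol. Wildtype treated and placebo glands did not overlap, while in the knockout the lowest treated gland, at 10.92, lay below the highest placebo gland, at 11.28. The difference was 3.30 log2 units in wildtype (SE 0.77, 95% interval 1.60 to 5.01, 9.88-fold, adjusted p = 0.0639) and 1.44 log2 units in the knockout (2.71-fold, adjusted p = 0.672). The responses differed by -1.87 log2 units, with an adjusted p of 0.852 for that difference.

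The wildtype placebo glands differed widely in Igfbp6. Without wildtype placebo gland 3 the wildtype difference was 4.04 log2 units (adjusted p = 0.0171), and without gland 1 it was 2.55 log2 units (adjusted p = 0.220). Without knockout placebo gland 3 the knockout difference was 0.78 log2 units. Fibroblast and matrix markers ranked the glands in the same order as Igfbp6 within every group, wildtype and knockout. Their score, over 18 of 19 listed genes, all 18 above the lower quartile on all arrays, was -0.92, -0.47 and 0.21 in the wildtype placebo glands and 0.85, 0.52 and 0.75 in the wildtype estradiol glands. In the knockout glands it was -0.11, 0.31 and -0.58 with placebo and 0.20, -0.11 and -0.64 with estradiol. The knockout mean score was -0.13 with placebo and -0.18 with estradiol, while the Igfbp6 means were 10.34 and 11.77. With this score as a covariate the Igfbp6 difference was 0.64 log2 units in wildtype (adjusted p = 0.309) and 1.58 log2 units in the knockout (adjusted p = 0.0107). With the lymphocyte or the white adipocyte score instead, the wildtype difference was 2.60 or 2.68 log2 units and passed the test (adjusted p = 0.0321 and 0.0077).

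The Igfbp6 start window, chr15:102143936-102144235 on the plus strand of GRCm38.p6, is shown for comparison with Igfbp2. These were the 2 members whose wildtype treated glands all lay above the placebo glands. Of all genes, 17% did not overlap there in either direction. Of all genes 5.11% lay wholly lower with estradiol, and the rest of the 17% lay wholly higher, as these members did. Capitals mark motif matches.
Igfbp6: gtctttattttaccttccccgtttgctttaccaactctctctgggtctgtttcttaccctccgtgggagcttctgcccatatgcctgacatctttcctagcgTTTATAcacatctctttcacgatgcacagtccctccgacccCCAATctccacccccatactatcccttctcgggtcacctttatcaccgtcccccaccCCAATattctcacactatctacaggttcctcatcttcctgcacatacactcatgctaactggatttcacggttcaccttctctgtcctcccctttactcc
It held CCAAT boxes at positions -107 and -50 and a TATA box on the minus strand at -148, a motif found in 13.6% of windows, and no GC box. Its GC content was 49.7%.

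Igfbp7, a low-affinity binding protein of vessel walls, read 11.46 to 12.65 with placebo and 12.18 to 12.47 with estradiol in wildtype glands, and 11.65 to 12.12 with placebo and 11.37 to 12.06 with estradiol in knockout glands. Under estradiol the genotypes did not overlap, at -0.57 log2 units (adjusted p = 0.423). Its 3 probe sets disagreed: 1437804_at gave 0.33 log2 units there, opposite in sign to the other two.

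Under estradiol, then, the knockout glands lay wholly below the wildtype glands for 5 of the 9 members, Igf1r, Igfbp2, Igfbp4, Igfbp5 and Igfbp7, where 11.8% of all genes did so and 22.3% did not overlap in either direction. Of these, Igfbp2 passed the test. Under placebo no member separated the genotypes, against 6.71% of all genes in either direction, and differences ran from -0.31 log2 units for Igfbp5 to 0.94 log2 units for Igfbp6, each with an adjusted p of 1.0. The Igfbp6 value was 0.18 log2 units without wildtype placebo gland 1, 0.47 without knockout placebo gland 2, 1.68 without wildtype placebo gland 3 and 1.59 without knockout placebo gland 3. The luminal and fibroblast scores were also higher in the wildtype than in the knockout estradiol glands, without overlap, as were the basal and the macrophage scores given with Igfbp2. With the luminal score as a covariate the differences under estradiol were -0.27 log2 units for Igf1r, -0.49 for Igfbp4, -0.50 for Igfbp5 and -0.98 for Igfbp7. With the fibroblast score they were -0.52, -0.15, -0.34 and 0.04 log2 units in the same order, so that the difference of Igfbp7 changed sign.

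**Figure D4:**
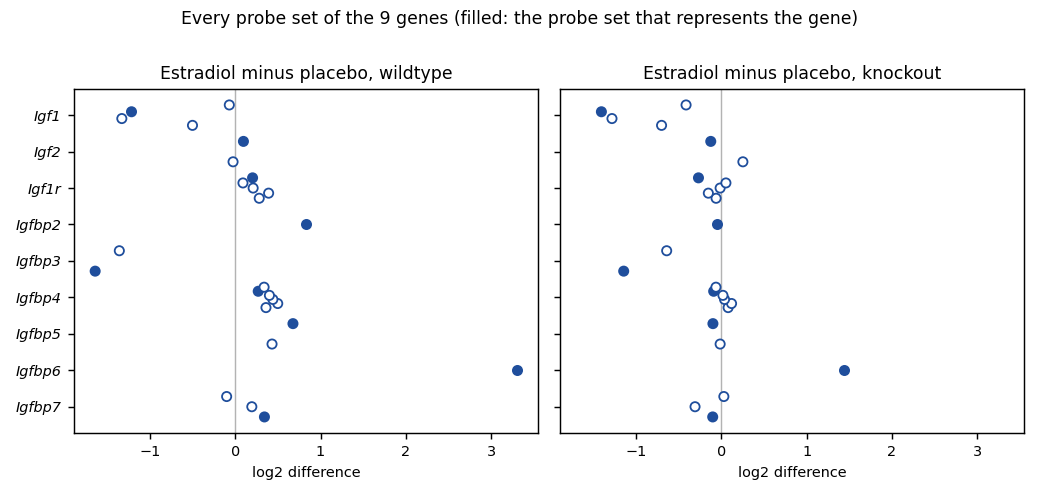
Estradiol difference in log2 signal (horizontal axis) for each of the 26 probe sets, by gene, in wildtype (left) and knockout (right); filled points are the probe sets that represent the gene. The 4 Igf1 and 2 Igfbp3 probe sets lie below 0 in both genotypes, and Igfbp6 is farthest to the right at 3.30 and 1.44.

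The other genes of the pathway were read from lists by role. Among other IGF and insulin ligands and receptors, 7 of 8 listed genes were measured and none was called in any of the 5 comparisons. The smallest p-values belonged to Igfbpl1 (-0.19 log2 units with estradiol in wildtype) and to the insulin receptor-related gene Insrr (-0.19 log2 units). Among 12 proteases and protease inhibitors that act on binding proteins, 1 rose with estradiol in wildtype, 1 fell in the knockout relative to wildtype under estradiol, and none was called in the other 3 comparisons. Htra1, a secreted serine protease that cuts binding proteins, rose from 11.58 ± 0.35 to 12.98 ± 0.06 (SD, n = 3), by 1.39 log2 units (adjusted p = 0.0049). It stood at 0.91 log2 units in the knockout (adjusted p = 0.145). Stc2, which encodes stanniocalcin-2, an inhibitor of PAPP-A, was lower in knockout than in wildtype glands under estradiol by 1.43 log2 units (adjusted p = 0.0362), at 6.49 ± 0.04 against 7.92 ± 0.65 (SD, n = 3). All 3 of its probe sets gave the same sign there, but with the luminal score as a covariate the difference was -0.28 log2 units (adjusted p = 1.0), and the call held in 3 of 12 fits that each left out 1 array.

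Of 8 genes of growth hormone input, 2 rose with estradiol in wildtype and 1 in the knockout. Socs2, a feedback inhibitor of growth hormone signaling, rose in both genotypes, by 1.28 log2 units in wildtype (adjusted p = 0.0044) and by 1.10 log2 units in the knockout (adjusted p = 0.0345). The knockout call of Socs2 held in 4 of 12 fits that left out 1 array, and its other probe sets gave -0.10 to 0.88 log2 units there. Stat5a, a transcription factor activated by growth hormone and prolactin receptors, rose in wildtype by 0.98 log2 units (adjusted p = 0.0399) and held in 3 of 12 such fits. Its call was lost with the luminal score (0.69 log2 units, adjusted p = 0.523), the fibroblast score (0.66 log2 units, adjusted p = 0.294) and the replicate number as a block (adjusted p = 0.105). The receptor gene Ghr and the kinase gene Jak2 were not called in any comparison.

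Of 32 receptor adaptors and PI3K-AKT pathway genes, 29 were measured and none was called in any of the 5 comparisons. For estradiol in wildtype, 5 of the 29 had an unadjusted p under 0.05, where 13.5% of all genes had. The smallest p-values over the 5 comparisons were those of Pik3r2, a regulatory subunit of PI3 kinase (0.52 log2 units, adjusted p = 0.126, estradiol in wildtype), and Foxo1, a transcription factor that AKT holds out of the nucleus (-0.64 log2 units, adjusted p = 0.341, estradiol in the knockout). Of 8 imprinted genes and RNA-binding or transcription factors linked to Igf2 or its region, 6 were measured and none was called. The imprinted growth inhibitors Cdkn1c and Plagl1 stood at 1.39 and 1.20 log2 units with estradiol in wildtype (adjusted p = 0.225 and 0.213). Of 9 proteins related to the binding proteins, 1 rose with estradiol in wildtype: Ccn1, a matrix-associated signaling protein, by 2.15 log2 units (adjusted p = 0.0052), from 6.34 ± 0.37 to 8.49 ± 0.44 (SD, n = 3). It stood at 1.16 log2 units in the knockout (adjusted p = 0.307), and its 4 probe sets gave 1.53 to 2.15 log2 units in wildtype. Htra1, Ccn1 and the wildtype call of Socs2 held in 12 of 12 fits that each left out 1 array. When the luminal score entered as a covariate they stood at 1.57, 1.71 and 1.32 log2 units and did not pass (adjusted p = 0.0734, 0.146 and 0.0828), nor did they with the fibroblast score (0.93, 2.02 and 1.08 log2 units; adjusted p = 0.0969, 0.107 and 0.101).

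**Figure D5:**
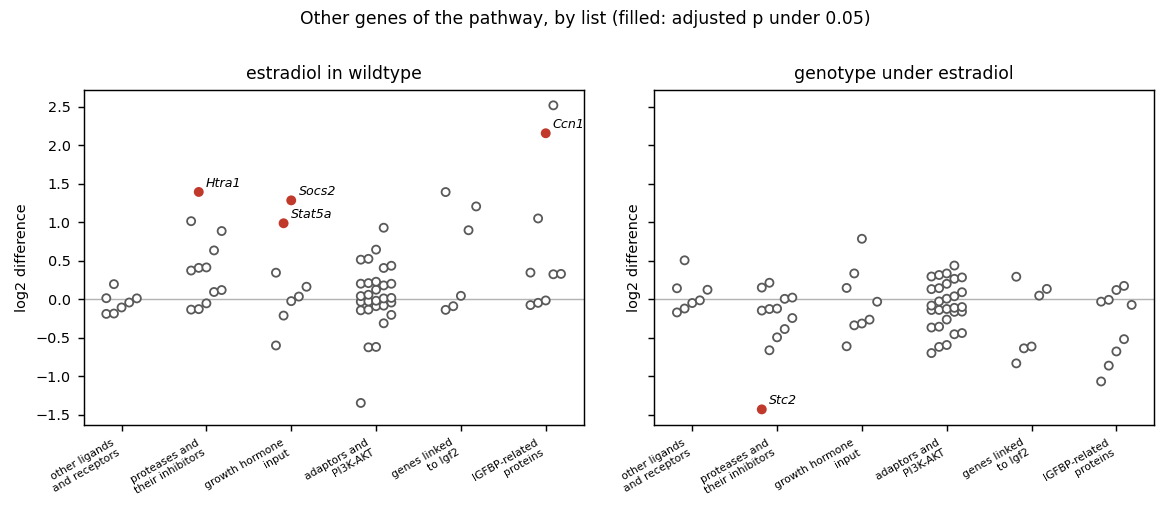
Difference in log2 signal (vertical axis) of each measured gene of the 6 pathway lists (horizontal axis), for estradiol in wildtype (left) and genotype under estradiol (right); points are genes and filled points passed an adjusted p under 0.05. Htra1, Socs2, Stat5a and Ccn1 are filled on the left, from 0.98 to 2.15, and Stc2 on the right, at -1.43.

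Genes whose pattern was most like each member were ranked by Pearson correlation over the 12 arrays, as a description: the arrays share 4 group means and tissue make-up, and 18193 genes were searched. For Igfbp2 the most alike were Scin (r = 0.96), Slc35d1 (0.95) and Vav3 (0.94); Scin encodes an actin-severing protein and Slc35d1 a nucleotide-sugar transporter. For Igfbp6 they were F13a1, Bmp1 and Rnase4 (0.97 each), a coagulation factor subunit, a procollagen proteinase and a ribonuclease. For Igf1 they were D630004K10Rik (0.93), Nus1 (0.92) and Cpeb4 (0.91), and for Igfbp3 Lyrm9 (0.93), Nckap5 (0.90) and Uhmk1 (0.89). Among the remaining members the leading genes were Dipk2a for Igf2 (0.96), the receptor phosphatase gene Ptprf for Igf1r (0.91), Sec22b for Igfbp4 (0.94), Ccdc68 for Igfbp5 (0.97) and Ube2o for Igfbp7 (0.94). No member was among the 3 genes most like another.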

How the data were processed

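Gene expression was measured in 12 mammary glands, 1 biotin-labelled sample per array. The submitters' processing notes name RMA and limma 2.9.16, and the deposited table holds log2 intensities as the authors summarised them per probe set; the annotation version is not given in the sources used here, and scanner files were not analysed here. RMA as usually run adjusts background and brings the arrays to one distribution, which compresses differences of dim probe sets. Probe sets with 1 gene symbol in the platform annotation were used (34945 of 45101), and each gene was read from the brightest of its probe sets by the mean of all arrays. The 9 members and all gene and marker lists were chosen with earlier results of these data known. Groups came from the sample labels.

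From these values a model of 4 group means was fitted to 18193 genes with limma 3.58.1 in R 4.3.3 (lmFit and eBayes, two-sided, Benjamini-Hochberg over all genes). Single contrasts gave the 7 comparisons: estradiol within each genotype, genotype within each treatment, the interaction and the 2 averages. The script was tested on simulated data. Ccnd1 was compared by an exact permutation test. Named beyond the members were Igfbp1, from each pathway list up to 4 called genes (or the 2 with the smallest p where none was called), the genes most correlated with each member, Ccnd1, Greb1 and Pgr. Marker scores are means of centred log2 values. Promoter windows and gene order came from RefSeq (GRCm38.p6). The labels describe separate mice; 3 arrays a group limit the precision.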

Additional observations from a re-analysis of the deposited data

How the results depend on the processing

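Counts of called members (estradiol in wildtype 1, in knockout 0, genotype under placebo 0, under estradiol 1, interaction 0, average estradiol 0, average genotype 0) changed as follows. For estradiol in wildtype the count was 0 without the dimmest 40% of genes, 6 with array weights, 3 at an adjusted p under 0.1, 0 with only the 6 arrays compared, 3 with the lymphocyte, 0 with the luminal, 0 with the fibroblast and 2 with the white adipocyte score as a covariate, 4 without the 2 placebo arrays poor in lymphocyte genes, and 0 to 3 when each array was left out in turn. For estradiol in knockout it was 1 with the fibroblast score. For genotype under estradiol it was 0 without the dimmest 40% of genes and with the luminal score, and 0 to 1 with each array left out. For the interaction it was 1 with array weights and with the lymphocyte score. For average estradiol it was 4 with array weights, 2 at 0.1, 4 with the lymphocyte, 1 with the fibroblast and 4 with the white adipocyte score, 4 without the 2 arrays, and 0 to 2 with each array left out. For average genotype it was 1 with array weights, at 0.1, with the lymphocyte, fibroblast and white adipocyte scores and without the 2 arrays, and 0 to 1 with each array left out. Genes called in all for estradiol in wildtype were 342, against 4702 with array weights, 158 with the replicate block and 11 with the luminal score.

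Same-numbered arrays are not paired by the labels: over 18 same-number pairs the correlations of deviations ran from -0.74 to 0.66, and 7 were above 0.1. With the replicate number as a block, the count for estradiol in wildtype was 0 (Igfbp2, adjusted p = 0.0546) and the other counts of called members did not change.

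These values changed sign, none of them called. Igf1, genotype under estradiol: -0.029 with the mean of all probe sets, -0.016 with array weights, -1.23 with the luminal score, and from -0.37 to 0.50 with each array left out. Igf1, interaction: 0.071 (lymphocyte), 0.66 (fibroblast) and 0.056 (white adipocyte score), 0.14 without the 2 arrays, and from -0.65 to 0.34 with each array left out. Igf2, estradiol in wildtype: -0.21 (lymphocyte), -0.62 (fibroblast) and -0.10 (white adipocyte), and from -0.061 to 0.30 with each array left out. Left out in turn, the arrays gave -0.16 to 0.0073 for Igfbp2, estradiol in knockout, and -0.71 to 0.10 for Igfbp5, genotype under placebo. With the fibroblast score, Igfbp5 and Igfbp7, estradiol in wildtype, were -0.25 and -0.41, Igfbp6 and Igfbp7, genotype under estradiol, 1.22 and 0.036, Igfbp6, interaction, 0.94, and Htra1, genotype under estradiol, 0.24. The causes were not tested. Pathway genes were put through these alternatives after the data were seen.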

Other observations

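Igfbp2 and Igfbp5 are neighbours on chromosome 1, and this pair was looked at after its values were seen. Over the 12 arrays their signals had a Pearson correlation of 0.44, and after each group's mean was taken out the correlation was -0.95. Members on other chromosomes also had such correlations below 0 with Igfbp2: -0.70 for Igfbp4 and -0.69 for Igf2 and for Igfbp6. Only Igfbp3, at 0.12, was above 0. Within the wildtype placebo group, the gland with the highest Igfbp5 (11.90) had the lowest Igfbp2 (4.73). The same held in the wildtype estradiol group (12.06 and 5.78) and the knockout placebo group (11.57 and 4.52). In the knockout estradiol group it did not: the gland with the highest Igfbp5 (10.88) had an Igfbp2 of 4.64, and the lowest Igfbp2 (4.63) was in a gland with an Igfbp5 of 10.69. The points share 4 group means and the tissue make-up of each gland, and the value is given as a description.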
